A study of Mus musculus with 8 samples.

Results

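The 9 genes described here are Hoxa3, Hoxa4, Hoxa5, Hoxa6, Hoxa7, Hoxa9 and Hoxa10 of the HoxA cluster, with Meis1 and Pbx3. They were taken by name as direct targets of MLL-AF9, and their Ensembl identifiers were matched to symbols in GENCODE mouse release M21. All 9 were found among the 47069 gene rows of the count files, and all 9 passed the filter on low counts that left 14263 genes for testing. On build mm10 the 7 HoxA genes lie on the minus strand of chromosome 6 between positions 52169062 and 52240854. Meis1 lies on the minus strand of chromosome 11 (positions 18879817 to 19018985), and Pbx3 on the minus strand of chromosome 2 (positions 34171457 to 34373142).

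HoxA genes encode homeodomain transcription factors that are active in blood stem and progenitor cells and are silenced as myeloid cells mature. MLL-AF9, a fusion of MLL with AF9, a subunit of transcription elongation complexes, keeps these genes and Meis1 active and so drives acute myeloid leukaemia. MEIS1 and PBX3 belong to the TALE class of homeodomain proteins, which bind DNA together with HOX proteins, and HOXA9 with MEIS1 is the best known such pair in this leukaemia.

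RNA was sequenced from mouse MLL-AF9 leukaemia cells that carried a TetO-Klf4 transgene, from which doxycycline induces KLF4, a zinc-finger transcription factor. GFP-positive leukaemia cells had been sorted from leukaemic mice, the tissue is given as bone marrow, and the strain label reads C57BL/7. The libraries were made at 0h, 6h, 12h and 24h, 2 libraries per time point, and all 8 share the fusion, the transgene and the sort. What started the clock is not given in the labels, nor whether replicates came from separate mice or animals were pooled. The p-values therefore measure only the spread between libraries, and this spread may be technical. Cells without the transgene given doxycycline were not analysed here, so the transgene, the drug and time cannot be told apart.

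Library totals ran from 20394546 to 26041347 gene counts. Klf4 stood at 2.71 and 4.42 CPM (library-scaled counts, TMM) in the 0h libraries, at 152 and 151 CPM in the 6h pair, 114 and 111 CPM in the 12h pair, and 76.9 and 78.8 CPM in the 24h pair. All 6 later libraries lay above both 0h libraries. The 12 myeloid leukaemia markers were all detected. Their summed level was 2911 to 2964 CPM at 24h against 3347 to 3376 CPM at 0h. Ctsg, the most abundant of the 12, averaged 1296 CPM at 24h and 1520 CPM at 0h. At 24h 3 of the 12 rose, 5 fell and 4 were not called. Of 7 tested monocyte and macrophage markers 4 rose and 3 fell at 24h, and of 9 tested late neutrophil markers 8 rose and 1 fell, where 26.1% of all tested genes rose and 24.8% fell. DESeq2 called 5 of these neutrophil markers higher and 0 lower. Of all 16439 genes it tested at 24h, it called 2612 higher and 2866 lower. Ly6g had a mean of 38.9 CPM at 24h against 3.60 CPM at 0h. The summed level was 1551 to 1603 CPM at 24h against 1231 to 1256 CPM at 0h for the monocyte and macrophage list. Most of this sum was Ly6c2, which averaged 1367 CPM at 24h and 1005 CPM at 0h. Cd68, Cd14 and Vcan were the other risers of this list. The 3 that fell were Adgre1 (40.9 against 66.5 CPM), Lyz2 (78.8 against 92.1 CPM) and Ccr2 (46.6 against 55.8 CPM). The late neutrophil list summed to 189.9 to 190.1 CPM at 24h against 108.2 to 117.4 CPM at 0h. B-cell markers summed to at most 12.2 CPM, T-cell markers to at most 9.58 CPM, megakaryocyte markers to at most 13.4 CPM and erythroid markers to at most 3.05 CPM in any library. Pax5, Ms4a1, Cd3e, Cd3g and Kdr had 0 counts. In the stroma and endothelium list, of which only Pecam1 was tested, Pecam1 averaged 142 CPM at 24h against 185 CPM at 0h. The part of these shifts in the results below was not tested.

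By 24h the HoxA genes had moved in different directions. Hoxa3, Hoxa4 and Hoxa6, in the part of the cluster nearer its Hoxa2 end, rose by 1.41-fold, 1.62-fold and 1.37-fold. Hoxa5 and Hoxa9 rose by 1.11-fold and 1.09-fold. Hoxa7 and Meis1 fell to 0.825 and 0.845 of their 0h level, while Hoxa10 and Pbx3 did not pass the test. Thus 5 of the 9 genes rose, 2 fell and 2 were not called. Of the 14263 tested genes 26.1% rose, 24.8% fell and 50.9% were called in either direction. Of all genes called at 24h, 51.27% were higher with TMM and 62.77% with scaling by library totals alone. The median log2 fold change of the 9 genes was 0.12, and that of all tested genes was 0.02.

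Promoter sequences are shown for Hoxa3 and Hoxa6, which are among the 5 genes that rose at 24h, and for the pair that fell, Hoxa7 and Meis1. In the annotation Hoxa6 lies within the span of Hoxa3, which runs from 52169062 to 52213336. The only window given for Hoxa3 is at the far end of this span, between Hoxa6 and Hoxa7. Any other start of Hoxa3 was not examined. Each sequence is the RefSeq window of 300 bases on GRCm38.p6, 250 before and 50 after the annotated start. It is written 5′ to 3′ on the minus strand. Capitals mark GGGTG, the core of the sequence that KLF proteins bind, and the longer GGGNGTG, on either strand. On the opposite strand they read CACCC and CACNCCC, and matches may overlap.

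Hoxa3 (chr6:52213018-52213317): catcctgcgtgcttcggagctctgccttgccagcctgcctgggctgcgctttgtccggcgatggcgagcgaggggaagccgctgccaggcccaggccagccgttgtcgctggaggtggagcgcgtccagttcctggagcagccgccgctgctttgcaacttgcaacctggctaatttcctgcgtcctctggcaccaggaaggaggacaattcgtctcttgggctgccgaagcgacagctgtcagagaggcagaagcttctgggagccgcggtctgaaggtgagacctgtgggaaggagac

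Hoxa6 (chr6:52208623-52208922): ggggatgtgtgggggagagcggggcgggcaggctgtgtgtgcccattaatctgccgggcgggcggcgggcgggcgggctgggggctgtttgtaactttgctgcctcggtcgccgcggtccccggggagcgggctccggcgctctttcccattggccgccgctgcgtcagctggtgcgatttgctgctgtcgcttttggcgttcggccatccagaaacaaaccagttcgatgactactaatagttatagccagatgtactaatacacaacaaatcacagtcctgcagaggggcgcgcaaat

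Hoxa7 (chr6:52218524-52218823): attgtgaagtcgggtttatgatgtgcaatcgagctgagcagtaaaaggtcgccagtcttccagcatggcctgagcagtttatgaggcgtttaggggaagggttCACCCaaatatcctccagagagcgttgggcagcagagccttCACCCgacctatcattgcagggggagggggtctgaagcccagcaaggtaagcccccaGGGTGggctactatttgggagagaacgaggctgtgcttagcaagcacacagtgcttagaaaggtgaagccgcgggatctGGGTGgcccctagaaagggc

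Meis1 (chr11:19018920-19019219): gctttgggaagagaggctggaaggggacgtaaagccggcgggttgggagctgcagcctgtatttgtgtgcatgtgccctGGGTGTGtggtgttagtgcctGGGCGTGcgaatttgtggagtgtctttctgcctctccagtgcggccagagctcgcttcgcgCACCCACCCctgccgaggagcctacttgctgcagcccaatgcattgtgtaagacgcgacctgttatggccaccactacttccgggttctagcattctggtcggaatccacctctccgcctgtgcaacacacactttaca

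The Hoxa3 and Hoxa6 windows held neither motif. The Hoxa7 window held 4 copies of GGGTG and no GGGNGTG, and the Meis1 window held 3 copies of GGGTG and 2 of GGGNGTG. RefSeq windows were given for 7 of the 9 genes, with 2 for Hoxa10 and none for Hoxa4 or Pbx3, and 5 of these 8 windows held GGGTG. Hoxa5, which also rose at 24h, had 4 copies of GGGTG and 1 of GGGNGTG. Hoxa9, another riser, and the upstream of the pair of Hoxa10 windows had 1 GGGTG each. Outside the 9 genes, the window of Hoxa2, which rose at 24h too, held 1 GGGTG and 2 GGGNGTG. Whether motif counts go with the direction of change was not tested. Of all 32851 windows of this length 57.5% held GGGTG and 29.2% held GGGNGTG, against 3 of the 8 windows here for GGGNGTG. A match is a description of the letters in the window, not a binding site.

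Compared per length, Hoxa9 and Hoxa10 were the most abundant of the 9 transcripts and Hoxa4 the least. In RPKM (CPM per kilobase of annotated exon), Hoxa10 averaged 79.8 ± 0.418, Hoxa9 74.1 ± 2.12, Hoxa5 47.7 ± 0.474, Hoxa6 34.5 ± 2.41, Hoxa7 27.9 ± 1.67, Pbx3 26.6 ± 0.115, Meis1 11.8 ± 0.228, Hoxa3 4.25 ± 0.0653 and Hoxa4 2.02 ± 0.125 at 0h (SD, n = 2). Hoxa7 and Pbx3 differed by less than the SD of Hoxa7, and the other neighbours in this order lay further apart than their SDs. At 0h Hoxa10 lay above 95.4% and Hoxa9 above 95.1% of the 14219 tested genes with a known length, whereas Hoxa3 lay above 47.7% and Hoxa4 above 35.8%. At 24h Hoxa9 averaged 80.4 ± 2.01 RPKM and Hoxa10 78.6 ± 1.29 RPKM, a difference smaller than the SD of Hoxa9. Hoxa6 averaged 47.4 ± 4.25 RPKM at 24h, closer to Hoxa5 at 52.8 ± 3.13 RPKM than at 0h. RPKM depends on which transcripts are annotated. Over exonic bases that no other gene shares, Hoxa7 averaged 28.9 RPKM and Pbx3 25.1 RPKM at 24h, while over all exonic bases Hoxa7 averaged 23.0 RPKM.

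Hoxa3, a paralog group 3 gene known for its role in pharyngeal arch development, stood at 25.8 and 25.3 CPM in the 0h libraries, 30.7 and 28.1 CPM in the 6h libraries, 32.0 and 33.3 CPM in the 12h libraries, and 34.0 and 38.1 CPM in the 24h libraries. No library after 0h overlapped the 0h pair. The log2 fold change against 0h was 0.50 ± 0.07 at 24h (SE, edgeR adjusted p = 4.9e-07) and 0.35 ± 0.07 at 12h (adjusted p = 0.00018). At 6h the difference of 0.20 ± 0.08 did not pass the test (edgeR adjusted p = 0.063), although it passed without 6h replicate 2 (0.26, adjusted p = 0.029), with library totals (adjusted p = 0.033) and with the stricter filter (adjusted p = 0.048).

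Hoxa4, a paralog group 4 gene, had the lowest level per length of the 9 and stood at 3.37 and 3.09 CPM in the 0h libraries, 4.68 and 4.56 CPM in the 6h libraries, 5.43 and 6.48 CPM in the 12h libraries, and 5.04 and 5.41 CPM in the 24h libraries. It had the largest fold among the 9 at each of these times. The log2 fold change against 0h was 0.52 ± 0.18 at 6h, 0.88 ± 0.17 at 12h and 0.70 ± 0.17 at 24h (SE, edgeR adjusted p = 0.035, 4.6e-05 and 0.00079). The 6h call was lost when any of its 4 libraries was left out (adjusted p = 0.08 to 0.22). It was also lost in DESeq2 (adjusted p = 0.19) and with GC and length offsets (adjusted p = 0.064).

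Hoxa6, a paralog group 6 gene, stood at 31.7 and 28.7 CPM in the 0h libraries and 32.0 and 30.1 CPM in the 6h libraries, and then at 38.9 and 43.5 CPM in the 12h libraries and 38.8 and 44.0 CPM in the 24h libraries. The 0h and 6h libraries overlapped, and the 12h and 24h libraries all lay above them. The log2 fold change against 0h was 0.04 ± 0.08 at 6h (edgeR adjusted p = 0.79, 95% interval -0.12 to 0.20), 0.45 ± 0.07 at 12h (adjusted p = 5e-06) and 0.46 ± 0.07 at 24h (adjusted p = 2.4e-06). Between 12h and 6h the same gene rose by 0.41 ± 0.07 (edgeR adjusted p = 7.7e-05), and between 24h and 12h the difference was 0.01 (95% interval -0.13 to 0.15).

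Hoxa5, a regulator of myeloid lineage choice and of lung development, had a level of 90.2 and 89.0 CPM in the 0h libraries, 81.4 and 80.9 CPM in the 6h libraries, 96.3 and 104 CPM in the 12h libraries, and 95.01 and 103 CPM in the 24h libraries. The 6h libraries lay below all the others. Against 6h the gene rose by 0.30 ± 0.05 at 12h (edgeR adjusted p = 4e-05) and by 0.29 ± 0.05 at 24h (adjusted p = 2.9e-05), on the log2 scale. Against 0h it rose by 0.16 ± 0.05 at 12h and 0.15 ± 0.05 at 24h (SE, edgeR adjusted p = 0.0097 and 0.016), and the difference of -0.14 ± 0.05 at 6h missed the threshold (adjusted p = 0.052). The 12h call was lost without 0h replicate 2 (adjusted p = 0.086) or 12h replicate 2 (0.24). The 24h call was lost without either 0h library (0.058 and 0.11) and without 24h replicate 2 (0.28). Both were lost in DESeq2 (0.057 and 0.11), while the 6h difference passed with DESeq2 size factors (0.047) and without 24h replicate 1 or 2 (0.039 and 0.038).

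Hoxa9, the HoxA gene most closely tied to MLL-fusion leukaemia, stood at 422 and 405 CPM in the 0h libraries, 406 and 398 CPM in the 6h libraries, 435 and 439 CPM in the 12h libraries, and 457 and 441 CPM in the 24h libraries. The 0h and 6h libraries overlapped, and the 12h and 24h libraries lay above both. The rise at 24h against 0h was 0.12 ± 0.04 on the log2 scale (SE, edgeR adjusted p = 0.014), a 1.09-fold change with a 95% interval of 1.03 to 1.15. It was no longer called without 0h replicate 2 (0.09, adjusted p = 0.22) or without 24h replicate 1 (0.09, adjusted p = 0.14). The 12h difference from 0h, 0.08 ± 0.04, did not pass (adjusted p = 0.11), but passed with library totals (0.0032), the stricter filter (0.032), GC and length offsets (0.012) and the 4 libraries alone (0.02). Against 6h the gene rose by 0.16 ± 0.04 at 24h (edgeR adjusted p = 0.0023).

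Hoxa10, which neighbours Hoxa9 and has been linked to myeloid proliferation, stood at 262 and 260 CPM in the 0h libraries, 245 and 252 CPM in the 6h libraries, 269 and 263 CPM in the 12h libraries, and 254 and 260 CPM in the 24h libraries. The 24h and 0h libraries overlapped. The difference at 24h was -0.02 on the log2 scale with a 95% interval of -0.10 to 0.06 (edgeR adjusted p = 0.7), or a fold of 0.931 to 1.04. The test for any change over the time course gave an adjusted p of 0.16. With library totals, which move the median of all genes by 0.07 at 12h, its 12h difference of 0.10 passed (adjusted p = 0.046).

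Hoxa7, a paralog group 7 gene between Hoxa6 and Hoxa9, was the only HoxA gene of the 7 that fell. It stood at 83.7 and 76.9 CPM in the 0h libraries, 69.6 and 73.8 CPM in the 6h libraries, 73.8 and 68.9 CPM in the 12h libraries, and 67.8 and 64.5 CPM in the 24h libraries. All later libraries lay below both 0h libraries. The log2 fold change against 0h was -0.28 ± 0.06 at 24h (SE, edgeR adjusted p = 6.3e-05), -0.17 ± 0.06 at 12h (adjusted p = 0.012) and -0.16 ± 0.06 at 6h (adjusted p = 0.037). The 24h call held in every alternative except the test against a 1.5-fold change. Leaving out 0h replicate 1 ended the call at 6h (-0.10, adjusted p = 0.39) and 12h (-0.11, adjusted p = 0.21). The 6h call also ended without 6h replicate 1 (adjusted p = 0.23), and the 12h call without 12h replicate 2 (adjusted p = 0.18). DESeq2 called neither (adjusted p = 0.13 and 0.057), and nor did library totals (0.12 and 0.14) or GC and length offsets (0.06 and 0.063). With no filter and with the 4 libraries alone the 6h call ended as well (0.074 and 0.067).

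Meis1, the TALE partner that speeds HOXA9-driven leukaemia, stood at 126 and 123 CPM in the 0h libraries, 117 and 118 CPM in the 6h libraries, 108 and 110 CPM in the 12h libraries, and 102 and 108 CPM in the 24h libraries. All later libraries lay below both 0h libraries. The log2 fold change against 0h was -0.08 ± 0.05 at 6h (SE, edgeR adjusted p = 0.22), -0.20 ± 0.05 at 12h (adjusted p = 0.00064) and -0.24 ± 0.05 at 24h (adjusted p = 2.9e-05). The 24h level was 0.845 of that at 0h, with a 95% interval of 0.792 to 0.901. The calls at 12h and 24h were lost only in the test against a 1.5-fold change, among the alternatives run. In bulk RNA, fewer cells that express a gene and less RNA of it per cell cannot be told apart.

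Pbx3, a TALE cofactor that stabilises HOXA9 and MEIS1 complexes, stood at 163 and 162 CPM in the 0h libraries, 162 and 158 CPM in the 6h libraries, 158 and 166 CPM in the 12h libraries, and 159 and 147 CPM in the 24h libraries. Both 24h libraries lay below both 0h libraries, but they differed from each other by more than the 0h libraries did. The difference at 24h was -0.09 ± 0.05 on the log2 scale (edgeR adjusted p = 0.12, 95% interval -0.18 to 0.01). It passed without 24h replicate 1 (-0.15, adjusted p = 0.024) and without 6h replicate 1 (-0.10, adjusted p = 0.049). Differences at 6h (-0.02) and 12h (-0.01) were smaller than their SE of 0.05.

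Among the 9 genes, as among all tested genes, more were called at 12h than at 6h. At 6h 1 of the 9 genes was called higher and 1 lower, where 18.3% of tested genes were called (9.74% rose and 8.58% fell). At 12h 4 were higher and 2 lower, where 43.7% were called (22.1% rose and 21.6% fell). Between 12h and 6h 3 rose, namely Hoxa5, Hoxa6 and Hoxa9, and none fell, where 20.7% were called (10.9% rose and 9.79% fell). Between 24h and 6h Hoxa3, Hoxa5, Hoxa6 and Hoxa9 rose and Meis1 fell (-0.16 ± 0.05, edgeR adjusted p = 0.006), where 33.4% were called (17.3% rose and 16.1% fell). Hoxa3 lost this call without 24h replicate 2 (adjusted p = 0.053), and Meis1 lost it without 24h replicate 1 (adjusted p = 0.093). Hoxa9 lost its 12h call against 6h without 6h replicate 2 (adjusted p = 0.11) and without either 12h library (0.11 and 0.2).

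Between 24h and 12h edgeR called 0 of the 9 genes, where 6.46% of tested genes were called. DESeq2 also called 0, and 1 gene had an unadjusted p under 0.05 in edgeR. The test for any change over the 4 time points called 7 of 9 genes, all but Hoxa10 and Pbx3, where 52.8% of tested genes were called. Libraries of the pair compared did not overlap for 6 of the 9 genes at 6h, 8 at 12h and 8 at 24h against 0h. Over all tested genes that share was 56.3% at 6h, 71.2% at 12h and 74.9% at 24h.

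The largest fold against 0h among the 9 genes was 1.85, for Hoxa4 at 12h. Tested against a 1.5-fold change instead of none, 0 of the 9 genes passed in any of the 6 comparisons, and 1 had an unadjusted p under 0.05, at 12h against 0h. The smallest adjusted p was 0.2, for Hoxa4 at that time. Of the 14263 tested genes 953, or 6.68%, passed this test at 24h against 0h, 600 at 12h and 213 at 6h. Between the later times 85 passed for 12h against 6h, 41 for 24h against 12h and 319 for 24h against 6h. Beside such low shares, 0 of 9 was near the background. DESeq2 without a fold threshold called 0, 4 and 6 of the 9 genes at 6h, 12h and 24h, where it called 11.5%, 27.4% and 33.3% of the genes it tested. The summed level of the 7 HoxA genes was 903 ± 21.6 CPM over the 0h libraries, 868 ± 1.70 CPM over those at 6h, 955 ± 6.06 CPM over those at 12h and 954 ± 3.41 CPM over those at 24h (SD, n = 2). With Meis1 and Pbx3 the sum was 1190 ± 24.7 CPM over the 0h libraries, 1146 ± 4.13 CPM over the 6h pair, 1225 ± 12.9 CPM over the 12h pair and 1212 ± 1.11 CPM over the 24h pair. It lay below 0h at 6h and above it at 12h by more than the SD at 0h, and above it at 24h by less. Hoxa9 and Hoxa10 hold most of the counts in these sums. At 24h Hoxa9 averaged 448.8 CPM against 413.5 CPM at 0h, and Hoxa10 257.2 CPM against 260.9 CPM.

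Within a time point the genes also differed between replicates together. At 0h all 9 genes were lower in replicate 2 than in replicate 1, from 0.906 of it for Hoxa6 to 0.994 for Pbx3. At 6h Hoxa3, Hoxa4, Hoxa5 and Hoxa6 were lower in replicate 2, and Hoxa7 was higher. At 12h and 24h Hoxa3, Hoxa4, Hoxa5 and Hoxa6 were all higher in replicate 2 than in replicate 1, and Hoxa7 was lower. Over the 3 differences from 0h, which share the 0h libraries, the course of Hoxa7 was closest to that of Meis1, with a root mean square difference of 0.051 on the log2 scale. That of Hoxa10 was closest to Pbx3, at 0.05, and that of Hoxa3 to Hoxa6, at 0.11. Outside the 9, genes were compared with the 3 members that had the smallest p for any change, among 8797 genes of sufficient level. The 3 nearest were Rb1, Tsc22d2 and Rad54b for Hoxa6 (0.031 to 0.034) and Acvr1b, Sh2b1 and Sbf1 for Hoxa3 (0.012 to 0.014). For Hoxa5 they were Ing2, Pcmtd1 and Rdh11 (0.018 to 0.023). The smallest SE of the fold changes against 0h was 0.073 for Hoxa3 and for Hoxa6 and 0.051 for Hoxa5. All these distances lay below it, so which genes come nearest is not resolved. At 24h Rb1, which encodes the retinoblastoma protein, rose by 0.48 on the log2 scale and Acvr1b, an activin receptor, by 0.51. Rdh11 rose by 0.17, a call that was lost without 0h replicate 2 (0.13, adjusted p = 0.14) and in DESeq2 (adjusted p = 0.1).

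The largest changes in the cluster lay outside the 7 listed genes. Hoxa2, which patterns the hindbrain, stood at 1.41 and 1.52 CPM in the 0h libraries, 1.43 and 1.22 CPM in the 6h libraries, 5.22 and 5.77 CPM in the 12h libraries, and 6.78 and 6.95 CPM in the 24h libraries. The antisense transcript Hoxaas2, between Hoxa2 and Hoxa3, stood at 1.96 and 1.93 CPM in the 0h libraries, 1.62 and 1.73 CPM in the 6h libraries, 7.78 and 8.15 CPM in the 12h libraries, and 10.03 and 10.5 CPM in the 24h libraries. Neither was called at 6h, and both were higher in all 4 later libraries than in any 0h or 6h library. At 24h Hoxa2 was 4.67-fold (95% interval 3.55 to 6.13, edgeR adjusted p = 5.3e-12) and Hoxaas2 5.26-fold (4.19 to 6.61, adjusted p = 5.2e-15) higher than at 0h.

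Hoxa11, beyond Hoxa10, averaged 50.1 ± 2.71 CPM at 24h and 53.9 ± 0.789 CPM at 0h (SD, n = 2), and was not called (edgeR adjusted p = 0.13). Hoxa13, a gene of distal limb and urogenital development, and Evx1, which flanks the cluster, had 0 counts in all 8 libraries, which allows up to 0.115 to 0.147 CPM per library for counting error only. Along the chromosome, the tested genes between Hoxa2 and Hoxa6 were thus higher at 24h, Hoxa7 was lower, and Hoxa9 was 1.09-fold higher, and Hoxa10, Hoxa11 and the antisense gene Hoxa11os were not called.

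On the strand opposite to the HOX genes, 5 of 7 tested genes of the interval rose at 24h and 0 fell, all of them with starts between Hoxa2 and Hoxa4. On the HOX strand 6 of 10 rose and 1 fell, where 26.1% and 24.8% of all tested genes rose and fell. Besides Hoxaas2, the risers on the opposite strand were Hoxaas3 and the gene models Gm15050, 5730596B20Rik and Gm29430, which were singled out after their values were seen. At 24h Hoxaas3 averaged 16.8 ± 0.270 CPM against 12.3 ± 0.498 CPM at 0h, and 5730596B20Rik 15.3 ± 1.10 CPM against 5.63 ± 0.994 CPM. Gm15050 was 2.79-fold and Gm29430 2.35-fold higher at 24h (edgeR adjusted p = 2.4e-07 and 2.5e-05). The model 5730596B20Rik had already risen at 6h, by 0.64 ± 0.14 on the log2 scale (adjusted p = 0.0013), to 8.80 ± 1.66 CPM.

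Whether the counting used strand is not given, so reads of these genes and of an overlapping HOX gene cannot be told apart. Opposite-strand or other genes share 27.1% of the exonic bases of Hoxa3, 16% of Hoxa4, 20.4% of Hoxa7, 18.3% of Meis1 and 1.52% of Hoxa9, and none of Hoxa5, Hoxa6, Hoxa10 or Pbx3. Hoxa5 and Hoxa6 share no exonic base but, like Hoxa4, lie within the spans of Hoxa3 and Hoxaas3. At 24h Hoxa6 rose by 1.37-fold and Hoxa5 by 1.11-fold, and the Hoxa5 call was lost in DESeq2. Whether reads from Hoxa3 or Hoxaas3 were counted to Hoxa5 or Hoxa6 was not tested. Fragments counted to no gene made up 9.15% ± 0.167 of a library at 24h and 5.47% ± 0.316 at 0h (SD, n = 2), and their part in the rises was not tested.

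Little RNA of the other Hox clusters was counted. Of 28 HoxB, HoxC and HoxD genes, 3 passed the filter, and each of the others had at most 12 counts over the 8 libraries. Hoxb4, a gene that supports stem cell expansion, averaged 0.429 ± 0.0357 CPM at 24h and 0.890 ± 0.0211 CPM at 0h (edgeR adjusted p = 0.037), and Hoxb13 and Hoxc4 averaged under 0.6 CPM at all times. The Hoxb4 call ended when any of its 4 libraries was left out (adjusted p = 0.093 to 0.14), in DESeq2 (0.17) and with library totals (0.051).

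Among 10 further TALE genes and PBX regulators 7 were tested, and at 24h 2 rose and 0 fell, with a median log2 fold change of 0.10, where 26.1% of all tested genes rose and 24.8% fell. Pbx2 averaged 53.0 CPM at 24h and 45.2 CPM at 0h (0.23 ± 0.06, edgeR adjusted p = 0.0011), and Pknox1, which encodes the MEIS-like protein PREP1, 51.1 CPM and 44.9 CPM (0.19 ± 0.06, adjusted p = 0.0069). The Pknox1 call ended without 0h replicate 2 (adjusted p = 0.051) and in DESeq2 (0.074). Pbxip1, a PBX-binding protein, averaged 137 CPM at 24h and 139 CPM at 0h, and Tgif1 27.7 CPM and 26.1 CPM, and neither was called. Pknox2 had 0 counts in all libraries, and Meis2 had 4 counts in all.

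Genes reported in the literature as targets of HOXA9 and MEIS1 did not move as a block. Of 17 tested at 24h, 6 rose, 6 fell and 5 were not called, with a median log2 fold change of -0.05, beside 26.1% of all tested genes that rose and 24.8% that fell. Cd34, a progenitor surface antigen, averaged 116 ± 1.33 CPM at 24h and 243 ± 1.55 CPM at 0h (-1.07 ± 0.04, edgeR adjusted p = 5.7e-22). Lmo2, a transcriptional adaptor of stem cells, fell by 0.34 ± 0.04, and Myb, which sustains progenitor growth, fell by 0.24 ± 0.04. Ccnd3, a D-type cyclin, rose by 0.70 ± 0.04 (adjusted p = 6.3e-16).

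Of 17 other tested targets of MLL-AF9, 5 rose and 10 fell at 24h, with a median of -0.11, while 26.1% of all tested genes rose and 24.8% fell. The falls included Mef2c, a myeloid transcription factor, at -0.62 ± 0.07, Eya1 at -0.46 ± 0.05 and the splicing factor Mbnl1 at -0.32 ± 0.04. Cpeb2, an RNA-binding protein of the cytoplasmic polyadenylation element family, rose by 0.75 ± 0.09 (edgeR adjusted p = 4.7e-09).

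Of 19 tested genes for the proteins that MLL fusions use, 10 rose, 3 fell and 6 were not called at 24h, with a median of 0.15. The shares over all tested genes were 26.1% higher and 24.8% lower. Kmt2a, which encodes MLL itself, averaged 179 CPM at 24h and 120 CPM at 0h (0.58 ± 0.05, edgeR adjusted p = 6.9e-12), and how far its row includes fusion transcripts was not tested. Dot1l, the histone H3 methyltransferase recruited by AF9, rose by 0.39 ± 0.04, and Psip1, which tethers MLL and menin to chromatin, by 0.35 ± 0.05.

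Of 14 tested Polycomb genes, whose complexes silence Hox clusters, 5 rose, 3 fell and 6 were not called at 24h, with a median of 0.01. With 50.9% of all tested genes called, 26.1% higher and 24.8% lower, these counts were near the background. The risers included Cbx7 (0.75 ± 0.11, edgeR adjusted p = 8.8e-07) and Cbx2 (0.46 ± 0.09), both chromobox readers of Polycomb complex 1, and Jarid2 (0.34 ± 0.04), a cofactor of Polycomb complex 2.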

How the data were processed

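RNA sequencing of 8 libraries was used, 2 at each of 4 times. Per the labels' protocols, an RNeasy kit gave total RNA and a TruSeq PE kit the libraries. The deposited values are raw counts per Ensembl gene. Per the submitters' processing notes, STAR, SAMtools 1.3 and HTSeq 2.0.3 were used, with build mm10. Annotation release, strand setting and filters: not given in the sources used here. The 5 summary rows of each file, which name no gene, entered neither library sizes nor tests; fragments without a gene made up 5.47% to 9.15% and ambiguous fragments 5.06% to 5.47% of a library on average. GENCODE M21 names matched 46574 of 47069 identifiers.

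Counts were tested in edgeR 4.0.16 (R 4.3.3) with TMM scaling, filterByExpr by time and 1 quasi-likelihood fit of all 8 libraries with a mean per time (4 residual degrees of freedom, biological coefficient of variation 3.1%). Tests were two-sided, p-values were adjusted by Benjamini-Hochberg over all 14263 tested genes within a comparison, and genes were called under 0.05. The SE is the absolute log2 fold change divided by the square root of F, and intervals are 95%. CPM are scaled by TMM, and RPKM divide CPM by GENCODE exonic length. Replicates differed by more than counting noise (chi-square per degree of freedom 1.83 to 3.79). The 0-count limit is 3 counts. The scripts were tested on simulated data.

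The 9 genes and all gene lists were chosen with earlier results of these data known. From each list up to 4 genes were named, those with the smallest p for any change over time, and likeness was taken for the 3 members with the smallest such p, among genes averaging at least 3 in log2 CPM, gene models left out. Some genes that these rules name are not reported here. In the HoxA noncoding list, Mira was not matched and has no value. Alternatives were DESeq2 1.42.0, DESeq2 size factors, library totals, no filter, a stricter filter (an average log2 CPM of at least 1), a replicate block, only the 4 libraries compared, a test against a 1.5-fold change, GC and length offsets (14212 genes), and leaving out each library.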

Additional observations from a re-analysis of the deposited data

Results flagged for a closer look

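Fragments that were counted to no gene made up 9.154% of a library on average at 24h, against 5.47% at 0h. These fragments enter none of the comparisons and lay above their 0h level. The groups of 2 libraries are too small for a check of single outlying libraries.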

How the results depend on the processing

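The count of the 9 genes called at 6h against 0h was 2 in the reported fit, where 2613 of all genes were called. It was 0 in DESeq2 (1570 of all genes) and with GC and length offsets (2760 of all genes). With no filter (2472 of all genes) and with the 4 libraries alone (2249 of all genes) it was 1. The test against a 1.5-fold change gave 0 in each comparison, in place of 6 at 12h and 7 at 24h against 0h. Of all tested genes 600 passed it at 12h and 953 at 24h. Leaving out 1 library changed the number called at 6h, 12h and 24h against 0h, both among the 9 genes and among all genes. Such a fit has a single library at that time, so its counts of the 9 genes are not compared here.

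Sign changes among the 9 genes were seen only for differences that were not called. Pbx3 was 0.012 at 6h with library totals and 0.003 with GC and length offsets. At 12h it was 0.063 with library totals, 0.003 with no filter, 0.018 with the stricter filter, 0.004 with the 4 libraries alone, 0.001 with GC and length offsets, and -0.043 to 0.027 when 1 library was left out. Hoxa6 at 6h was -0.008 with GC and length offsets and -0.034 to 0.109 when 1 library was left out. Hoxa10 at 24h was 0.044 with library totals, 0.006 with the stricter filter and 0.005 with GC and length offsets. The cause was not tested.

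With the replicate block the counts were 2, 6 and 7 at 6h, 12h and 24h against 0h, 3 for 12h against 6h, 0 for 24h against 12h and 5 for 24h against 6h. Same-numbered libraries did not deviate together (r from -0.017 to 0.021), so the numbers were not taken as pairs. With library totals 69.91%, 65.36% and 62.77% of all genes called at 6h, 12h and 24h were higher, against 53.16%, 50.55% and 51.27% with TMM. Over all genes DESeq2 called 1570 at 6h against 0h, 1477 for 12h against 6h, 417 for 24h against 12h and 2965 for 24h against 6h, where edgeR called 2613, 2947, 921 and 4765. The 6h count was 1702 and 1319 without 0h replicate 1 and 2. In the gene lists at 24h, library totals left 1 fall each among fusion machinery and Polycomb genes in place of 3, and DESeq2 left 3 rises among other MLL-AF9 targets in place of 5 and 5 among late neutrophil markers in place of 8. With 2 libraries per time, a library left alone took its spread from the other times, and changes well under 1.5-fold rest on a spread shared across genes.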
